A study of Mus musculus with 15 samples.

Results

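The transcripts described here encode chaperones and folding enzymes of the endoplasmic reticulum (ER), with the transcription factor that induces many of them. They are 10 genes taken by name and not by a cut on their values, namely Hspa5, Hsp90b1, Calr, Canx, Pdia3, Pdia4, Pdia6, Dnajb9, Sdf2l1 and Xbp1. Earlier results of these data were known when the genes were chosen. All 10 were listed in the count tables of all 15 mice, among 39179 genes, and all 10 passed the filter on low counts. RNA came from quadriceps muscle of C57BL/6 mice, from 4 wild-type and 4 V338Y animals at 3 mo of age and from 3 wild-type and 4 V338Y animals at 19 mo. V338Y mice carry the amino acid exchange V338Y on both alleles of Mrps5, the gene of a protein of the mitochondrial ribosome, and serve as a model of misreading in mitochondrial protein synthesis. The mutation is in the germ line, so every cell type of the muscle carries it, and wild-type mice of the same strain and age are the controls.

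Proteins that enter the ER are folded by chaperones, receive disulfide bonds from protein disulfide isomerases and, if they carry sugar chains, pass through cycles of binding to lectin chaperones. When unfolded proteins accumulate, the sensors Ire1, Perk and Atf6 start the unfolded protein response (UPR), in which spliced Xbp1 and cleaved Atf6 raise transcription of chaperone genes. In muscle the ER forms the sarcoplasmic reticulum, which stores calcium, and several of its luminal proteins bind calcium.

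Between 8250653 and 18968132 expected counts per mouse were assigned to genes, and the 10 transcripts together took 0.0647 to 0.0976% of them. Levels are given in CPM, the usual unit of read counts relative to the size of a library, with sizes normalized by the trimmed mean of M-values (TMM). Mrps5 itself, whose coding change leaves the transcript in place, stood at 21.2 to 27.5 CPM in the 8 mice of 3 mo and at 14.96 to 19.3 CPM in the 7 mice of 19 mo. No difference between genotypes passed the test (edgeR adjusted p = 0.665 at 3 mo and 0.996 at 19 mo), and the level of the transcript therefore does not check the labels. Xist, the transcript of the inactive X chromosome, was at 506 to 631 CPM in every mouse of 19 mo and at no more than 0.575 CPM in every mouse of 3 mo, whereas the Y-linked Ddx3y was at 163 to 202 CPM in the mice of 3 mo and at no more than 0.0827 CPM in those of 19 mo. By these transcripts the 8 mice of 3 mo were male and the 7 mice of 19 mo female, whereas the methods of the study name female animals at 3 mo. In every comparison of ages below, age and sex therefore cannot be told apart, and a difference said to come with age may be one of sex. In whole muscle fewer cells of a type and less RNA per cell cannot be told apart either.

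The ER stress response element, CCAAT and CCACG separated by 9 bases, is the sequence through which the UPR factors act on chaperone promoters. It was searched on both strands in RefSeq windows of GRCm38.p6 from 250 bases before to 50 bases after the RefSeq start of each gene. The windows of 5 of the 10 genes held it, as did those of 0.137% of the 27025 genes with a window (0.119% of the 32851 windows searched). The 10 genes were chosen by name as chaperone and UPR genes. A share above that of all genes was therefore given in advance and is no result. The 5 genes with a match include all 3 that were called lower at 19 mo in wild-type mice. They include none of the 3 that were called higher at 19 mo in V338Y mice. This sorting rests on calls from these same data and is no result either. The wild-type calls of Hspa5 and Pdia6 were each lost in some fits with a mouse left out. None of the 10 genes passed the test of a difference between the age effects of the genotypes (smallest edgeR adjusted p = 0.484). Hsp90b1 and Canx hold the motif too but were not called with age in wild-type mice (log2 fold changes of 0.0030 and -0.031). A part of the motif in the age differences was not tested. Each match is written 5′ to 3′ in the orientation of the motif, with the CCAAT and CCACG parts in capitals.
Hspa5, chr2:34772025-34772043: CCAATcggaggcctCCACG
Hsp90b1, chr10:86705638-86705656: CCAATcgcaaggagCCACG
Hsp90b1, chr10:86705533-86705551, motif on the strand opposite to the gene: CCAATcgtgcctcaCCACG
Calr, chr8:84847075-84847093, motif on the strand opposite to the gene: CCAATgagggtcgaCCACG
Canx, chr11:50325800-50325818: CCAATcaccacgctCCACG
Pdia6, chr12:17266491-17266509: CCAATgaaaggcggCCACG

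A looser form in which the last base may be any base, chosen after these windows had been seen, was held by 7 of the 10 windows and by 0.365% of all windows. The added genes were Pdia3 and Pdia4, both of the isomerase group. Both were higher at 19 mo in V338Y mice, as was Xbp1, which held neither form. Since the looser form was chosen with the windows in view, its matches are a description only. A part of this form in the age differences was not tested. In the matches of Pdia3 and Pdia4 the last base, in lower case, is not the G of the full motif.
Pdia3, chr2:121413873-121413891: CCAATcggcggctgCCACa
Pdia4, chr6:47813602-47813620, motif on the strand opposite to the gene: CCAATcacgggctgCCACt
Windows of Dnajb9, Sdf2l1 and Xbp1 held neither form, which says only that these letters are not in the 300 bases read. Starts are those of RefSeq, which differ from the ends of the GENCODE gene spans given below, so that a match before a RefSeq start can lie inside such a span, as for Hspa5 and Pdia3. The 250 bases before the RefSeq start of Hspa5 (chr2:34771840-34772089, plus strand), among the best studied target promoters of the UPR, are shown with the motif in capitals.
Hspa5: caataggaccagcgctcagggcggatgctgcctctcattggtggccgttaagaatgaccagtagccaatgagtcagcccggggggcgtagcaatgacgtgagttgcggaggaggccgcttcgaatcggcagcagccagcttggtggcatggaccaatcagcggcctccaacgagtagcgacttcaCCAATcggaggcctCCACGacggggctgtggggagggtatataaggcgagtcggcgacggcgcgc

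Per kilobase of exon, 4 transcripts formed an upper tier in this muscle. Over the 15 mice the mean level was 41.2 CPM per kb for Calr, 41.0 for Hspa5, 37.3 for Hsp90b1 and 33.5 for Canx. Of the genes that passed the filter on low counts over all 15 mice and had an exon length, 94.3 to 95.3% had a lower level. Calr was above Hspa5 in 7 of 15 mice, so the order of these neighbours did not exceed the spread between mice. Xbp1 followed at 19.2 CPM per kb and Pdia3 at 16.1, then Pdia6 at 10.0, Dnajb9 at 9.65 and Pdia4 at 8.36. Pdia6 was above Dnajb9 in 8 of 15 mice, and these neighbours were not separated either. Sdf2l1 was lowest at 2.42 CPM per kb and rested on 19 to 64 counts per mouse, so its values are the least precise of the set. The number of counts behind the other 9 transcripts ran from 137 to 3118 per mouse.

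**Figure D1:**
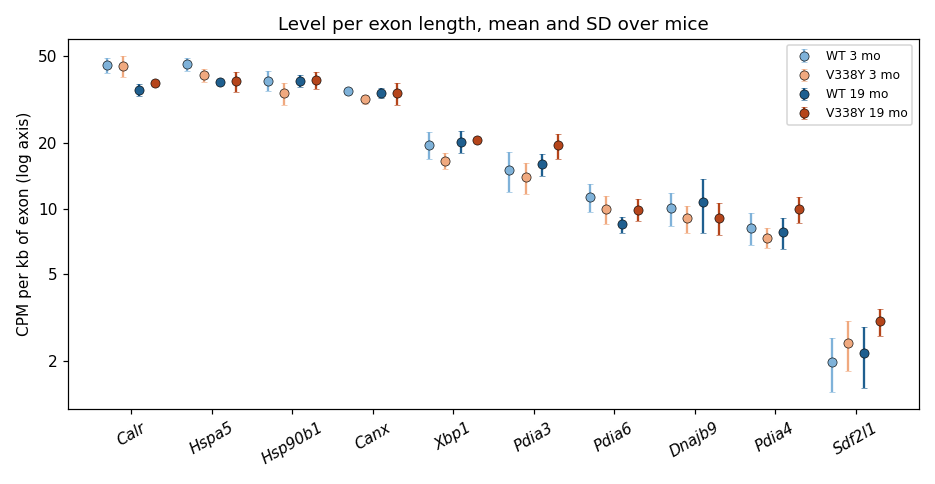
Mean level of each transcript in CPM per kilobase of exon (log axis), with the SD over mice as bars, for the 4 groups (n = 4 mice, except n = 3 for wild-type at 19 mo). Calr, Hspa5, Hsp90b1 and Canx form the upper tier and Sdf2l1 is lowest in every group.

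Hspa5 (chromosome 2, 34771970 to 34777547 on GRCm38) encodes BiP, the Hsp70 of the ER, which binds hydrophobic stretches of unfolded proteins and holds the UPR sensors inactive. Its level was 183, 192, 189 and 213 CPM in 3 mo wild-type mice and 179, 186, 158 and 168 CPM in 3 mo V338Y mice. At 19 mo it was 162, 158 and 162 CPM in wild-type and 151, 162, 149 and 187 CPM in V338Y mice. Every 3 mo wild-type mouse was above every 19 mo wild-type mouse, while the V338Y mice of the 2 ages overlapped. Hsp90b1 (chromosome 10, 86690209 to 86705509) encodes Grp94, the Hsp90 of the ER. Its level was 138, 163, 146 and 174 CPM in 3 mo wild-type and 156, 139, 117 and 134 CPM in 3 mo V338Y mice. At 19 mo the values were 159, 163 and 145 CPM in wild-type and 159, 151, 141 and 174 CPM in V338Y mice, and all 4 groups overlapped.

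Dnajb9 (chromosome 12, 44205559 to 44210326) encodes ERdj4, a J-domain cochaperone of BiP. Its level was 26.3, 31.0, 25.3 and 20.1 CPM in 3 mo wild-type and 18.05, 23.7, 25.1 and 25.01 CPM in 3 mo V338Y mice. In the older animals it was 22.6, 23.4 and 36.1 CPM in wild-type and 17.5, 23.3, 25.2 and 26.2 CPM in V338Y mice, so the groups overlapped and wild-type mouse 5 held the highest value of all. Sdf2l1 (chromosome 16, 17130138 to 17132383) encodes a luminal partner of BiP and its J-domain cochaperones. Its level was 1.73, 2.13, 1.86 and 3.08 CPM in 3 mo wild-type and 3.68, 2.48, 2.07 and 2.54 CPM in 3 mo V338Y mice. At 19 mo it was 3.23, 2.30 and 1.74 CPM in wild-type and 3.71, 3.82, 2.91 and 3.02 CPM in V338Y mice. The 4 groups overlapped here as well.

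Calr (chromosome 8, 84841850 to 84846934) encodes calreticulin, a luminal lectin chaperone that also binds calcium. Its level was 124, 127, 129 and 146 CPM in 3 mo wild-type and 151, 130.2, 123 and 117 CPM in 3 mo V338Y mice. In the older animals it was 100.3, 107 and 94.7 CPM in wild-type and 112, 109.8, 105.3 and 107 CPM in V338Y mice. In both genotypes every mouse of 19 mo was below every mouse of 3 mo. Canx (chromosome 11, 50293961 to 50325673) encodes calnexin, the membrane-bound lectin chaperone with the same sugar specificity. Its level was 157, 166, 160.1 and 167 CPM in 3 mo wild-type and 152, 156, 139 and 149 CPM in 3 mo V338Y mice. The 3 mo V338Y mice were all below the 3 mo wild-type mice, and at 19 mo the values of 156, 153 and 168 CPM in wild-type and of 157, 146, 146 and 186 CPM in V338Y mice overlapped.

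Pdia3 (chromosome 2, 121413775 to 121438687) encodes ERp57, the disulfide isomerase that works with calnexin and calreticulin. It lies 6.15 Mb from Mrps5 on chromosome 2, the nearest of the 10 genes, and the haplotype around the mutated allele in these mice was not tested. Its level was 42.0, 48.2, 38.1 and 60.6 CPM in 3 mo wild-type and 53.1, 43.5, 36.8 and 41.3 CPM in 3 mo V338Y mice. At 19 mo it was 52.2, 54.8 and 43.4 CPM in wild-type and 69.0, 66.1, 51.1 and 58.6 CPM in V338Y mice, of which the lowest fell within the range of the younger V338Y mice. Pdia4 (chromosome 6, 47796141 to 47813430) encodes ERp72, a further isomerase of the ER. Its level was 17.8, 18.2, 18.05 and 24.5 CPM in 3 mo wild-type and 20.2, 17.8, 16.9 and 15.8 CPM in 3 mo V338Y mice. The values at 19 mo were 20.3, 20.7 and 15.1 CPM in wild-type and 28.3, 21.1, 24.2 and 21.8 CPM in V338Y mice. The 19 mo V338Y mice were above all mice of the 19 mo wild-type and 3 mo V338Y groups.

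Pdia6 (chromosome 12, 17266545 to 17284770) encodes P5, an isomerase that acts with BiP and limits the activity of Ire1. Its level was 39.6, 38.6, 39.9 and 51.7 CPM in 3 mo wild-type and 45.1, 36.3, 32.4 and 35.04 CPM in 3 mo V338Y mice. At 19 mo it was 34.1, 32.2 and 28.9 CPM in wild-type and 43.2, 36.1, 34.0 and 34.8 CPM in V338Y mice. Only the wild-type mice separated by age, with all 3 older mice lower. Xbp1 (chromosome 11, 5520659 to 5525893) encodes the transcription factor whose mRNA is spliced by Ire1, and a count per gene does not separate the spliced from the unspliced form. Its level was 53.9, 69.3, 73.2 and 59.1 CPM in 3 mo wild-type and 59.7, 55.3, 52.0 and 48.6 CPM in 3 mo V338Y mice. The values at 19 mo were 60.4, 62.6 and 74.4 CPM in wild-type and 65.8, 68.7, 68.2 and 65.8 CPM in V338Y mice, and the older V338Y mice were all above the younger ones.

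**Figure D2:**
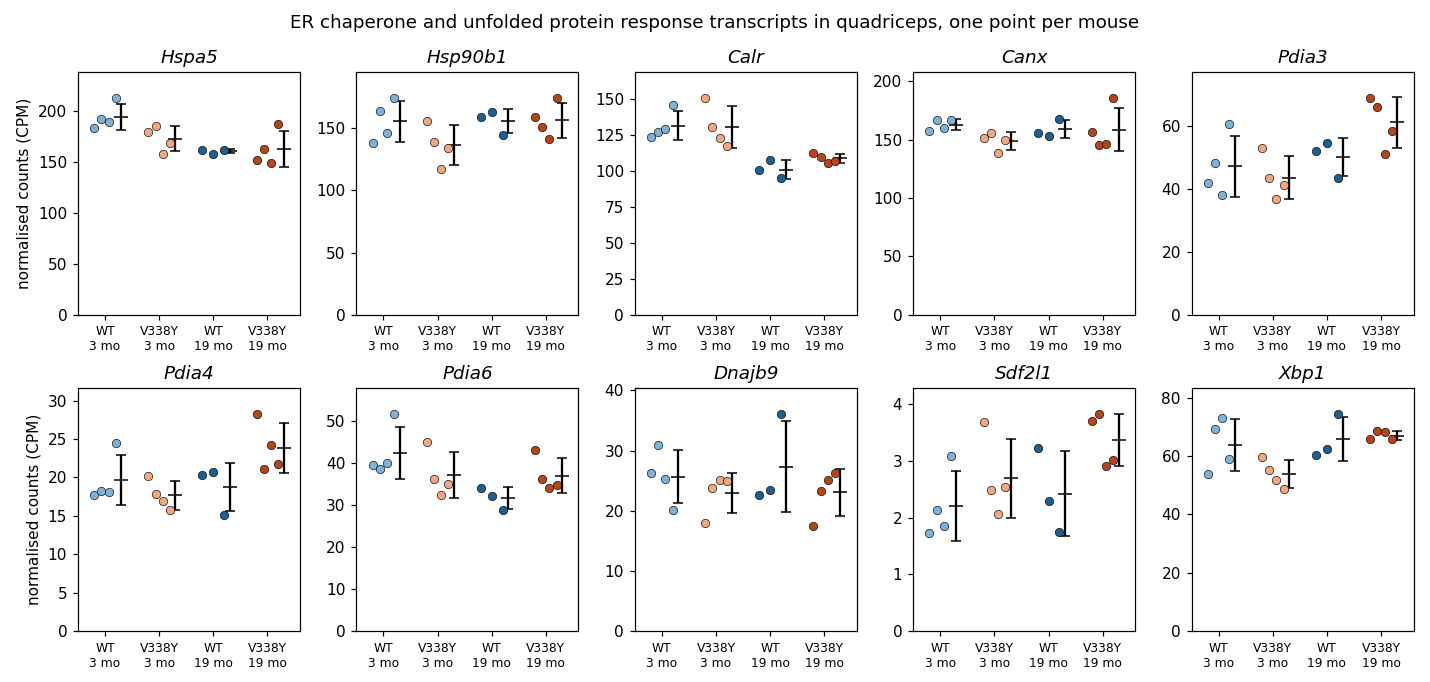
Level of each of the 10 transcripts in CPM (axes start at 0), 1 point per mouse, with the group mean and SD as a bar beside the points. Calr, Hspa5 and Pdia6 are lower in the older than in the younger wild-type mice, without overlap of the groups. In V338Y mice Calr is lower and Pdia4 and Xbp1 are higher in the older mice, also without overlap.

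The effect of the mutation in young muscle was asked by comparing V338Y with wild-type mice at 3 mo. None of the 10 transcripts was up- or down-regulated. By edgeR's quasi-likelihood test with Benjamini-Hochberg adjustment over all genes, 0 of 10 had an adjusted p under 0.05, where 0.075% of the 13333 genes tested did, and DESeq2 also called 0 of 10. An unadjusted p under 0.05 was reached by 2 of 10 transcripts, both lower in V338Y mice, where 4.67% of all genes were lower at that threshold. They numbered 0 to 4 with 1 mouse left out, 4 without V338Y mouse 1, 3 without wild-type mouse 1 and 0 without V338Y mouse 3 or 4 or wild-type mouse 2 or 3. The 2 were Hspa5 with 194 ± 12.8 CPM (SD, n = 4) in wild-type and 173 ± 12.2 CPM (n = 4) in V338Y mice, a log2 fold change of -0.17 (SE 0.073, edgeR adjusted p = 0.502), and Xbp1 with 63.9 ± 8.92 and 53.9 ± 4.71 CPM, a log2 fold change of -0.24 (SE 0.11, edgeR adjusted p = 0.502). Canx alone did not overlap between the genotypes, 163 ± 4.76 against 149 ± 7.37 CPM, where 2.24% of all genes were lower in V338Y mice without overlap, and its edgeR adjusted p was 0.547. The fitted log2 fold change was below 0 for 9 of 10 transcripts, Sdf2l1 being the exception at 0.32 (95% interval -0.23 to 0.87), and the median of the 10 was -0.15 beside -0.0026 for all genes tested. It ranged from -0.20 to -0.093 with 1 mouse left out, the value nearest to 0 being that without wild-type mouse 4.

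At 19 mo the same comparison in older muscle again gave no transcript past the threshold. EdgeR called 0 of 10, where 0.0434% of 13833 genes were called, and DESeq2 called 0 of 10 with 0 at an unadjusted p under 0.05. By edgeR 2 of 10 transcripts had an unadjusted p under 0.05, both higher in V338Y mice, where 6.17% of all genes were higher at that threshold. Pdia4 was at 18.7 ± 3.11 CPM (SD, n = 3) in wild-type and at 23.8 ± 3.22 CPM (n = 4) in V338Y mice, a log2 fold change of 0.37 (SE 0.16, edgeR adjusted p = 0.557). Pdia3 was at 50.2 ± 5.97 and 61.2 ± 8.05 CPM, a log2 fold change of 0.31 (SE 0.14, edgeR adjusted p = 0.557). Pdia4 was also the single transcript without overlap between the genotypes, where 4.51% of all genes were higher without overlap. Fitted values were above 0 for 9 of 10 transcripts, with a median of 0.095 beside 0.0080 for all genes, and Dnajb9 was the exception at -0.21 (95% interval -0.67 to 0.25). Whether mouse numbers pair the mice is not given by the labels. A fit with mouse number as a replicate block is therefore an alternative only. In it the count of all genes called rose from 6 to 110, that of the 10 transcripts stayed at 0, and Pdia4 had a log2 fold change of 0.45 with an edgeR adjusted p of 0.121. Pdia6 (unadjusted p = 0.0364 by edgeR) then took the place of Pdia3 (0.0713) among the 2 transcripts with an unadjusted p under 0.05. Without the block that number was 0 to 1 whichever mouse was left out, and 0 without V338Y mouse 2 or wild-type mouse 5.

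In wild-type mice, the comparison of 19 mo with 3 mo gave 3 down-regulated transcripts and none up-regulated. Calr, Pdia6 and Hspa5 passed an adjusted p under 0.05 (edgeR), 3 of 10, where 17.8% of the 13657 genes tested were lower and 36.2% were called in either direction. Calr fell from 131 ± 10.0 CPM (SD, n = 4) to 101 ± 6.37 CPM (n = 3), a log2 fold change of -0.38 (SE 0.092, edgeR adjusted p = 0.0124). Pdia6 fell from 42.5 ± 6.18 to 31.7 ± 2.63 CPM, a log2 fold change of -0.42 (SE 0.12, edgeR adjusted p = 0.0265). Hspa5 fell from 194 ± 12.8 to 160.5 ± 2.29 CPM, a log2 fold change of -0.27 (SE 0.084, edgeR adjusted p = 0.0307). These were also the 3 of 10 transcripts without overlap between the ages, where 21.7% of all genes were lower without overlap. The other 7 had fitted log2 fold changes between -0.062 for Pdia4 and 0.16 for Sdf2l1, and the median of the 10 was -0.014 beside 0.019 for all genes.

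The call of Calr held when each mouse was left out in turn, that of Hspa5 was lost in 5 of 7 such fits and that of Pdia6 in 2. Without 19 mo wild-type mouse 4 the edgeR adjusted p was 0.0887 for Hspa5 and 0.0671 for Pdia6. It was 0.0533 for Hspa5 without 19 mo mouse 2, 0.0592, 0.0617 and 0.0673 without 3 mo mouse 2, 3 or 4, and 0.0718 for Pdia6 without 19 mo mouse 5. Hspa5 was also not called without a filter on low counts (adjusted p = 0.0547). Scaled to library totals without TMM, all 3 transcripts were still fitted lower but 0 of 10 passed (adjusted p 0.0792 for Calr, 0.105 for Pdia6 and 0.180 for Hspa5), and this scaling moved the median of all genes from 0.019 to 0.112.

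In V338Y mice, the comparison of 19 mo with 3 mo gave 3 up-regulated transcripts and none down-regulated. Xbp1, Pdia3 and Pdia4 passed the threshold, 3 of 10, where 24.4% of the 13868 genes tested were higher and 46.9% were called in either direction. Xbp1 rose from 53.9 ± 4.71 CPM (SD, n = 4) to 67.1 ± 1.53 CPM (n = 4), a log2 fold change of 0.33 (SE 0.085, edgeR adjusted p = 0.0112). Pdia3 rose from 43.7 ± 6.88 to 61.2 ± 8.05 CPM, a log2 fold change of 0.50 (SE 0.13, edgeR adjusted p = 0.0123), and Pdia4 from 17.7 ± 1.87 to 23.8 ± 3.22 CPM, a log2 fold change of 0.44 (SE 0.12, edgeR adjusted p = 0.0155). Xbp1 and Pdia4 were the 2 of 10 transcripts that were higher without overlap, where 20.3% of all genes were. Each of the 3 calls held whichever mouse was left out. Calr was the 1 transcript lower without overlap (21.9% of all genes were), at 130.2 ± 14.6 and 109 ± 3.14 CPM, and its log2 fold change of -0.25 (SE 0.096) had an edgeR adjusted p of 0.0547. Calr was called as lower by DESeq2 (adjusted p = 0.0195), with RLE size factors (edgeR adjusted p = 0.0422) and in a fit of all 15 mice (0.0202), whereas scaling to library totals turned its value to 0.044. The median of the 10 was 0.157 beside 0.072 for all genes. Scaled to library totals without TMM, 6 of 10 passed, all higher (Canx, Hsp90b1 and Sdf2l1 in addition), but that scaling moved the median of all genes to 0.363, and the median of the 10 stood 0.085 above that of all genes with TMM and 0.088 above it without. This distance depended on the genes set beside it, since without a filter on low counts the median was 0.14 for the 10 and 0.25 for all genes, and on single mice, since it was 0.032 without 3 mo V338Y mouse 3 and 0.050 without 19 mo V338Y mouse 5.

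**Figure D3:**
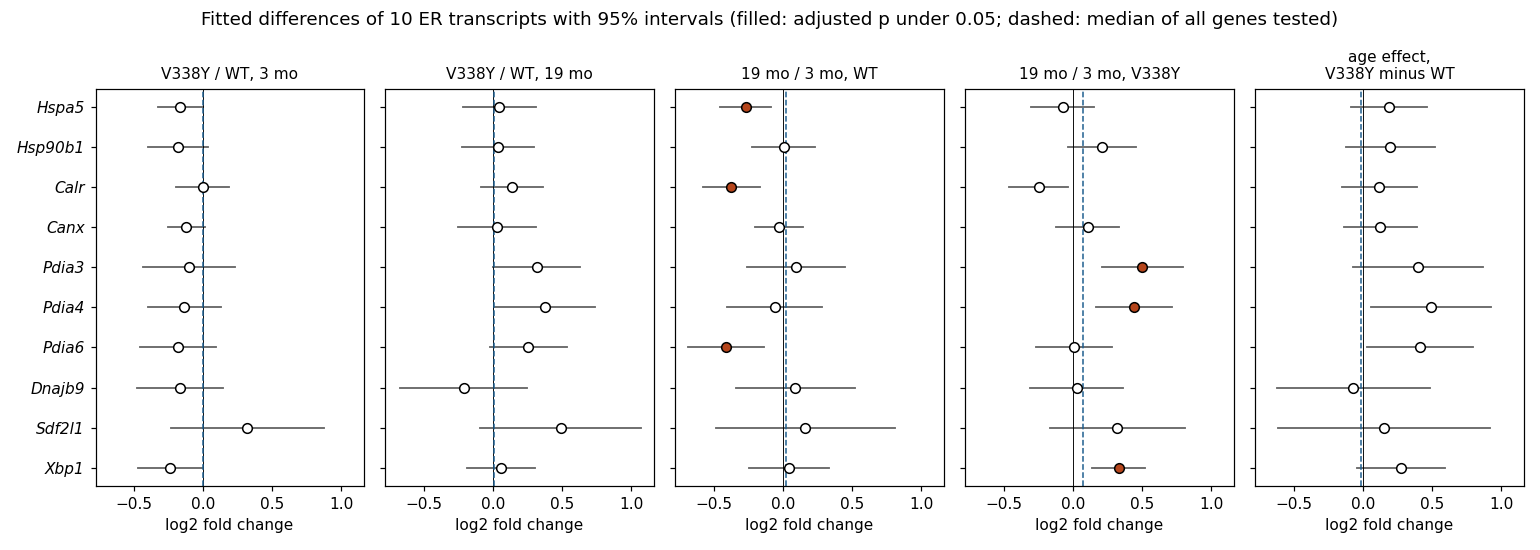
Log2 fold change of each transcript (points) with its 95% interval (lines) in the 4 comparisons of groups and for the difference of the age effects, filled where the edgeR adjusted p was under 0.05, with the median of all genes tested as a dashed line. Filled points appear only in the age comparisons, for Hspa5, Calr and Pdia6 in wild-type and for Pdia3, Pdia4 and Xbp1 in V338Y mice.

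The transcripts that passed in the main fits of the 2 genotypes were different ones, but no difference between the 2 age effects passed a test of its own. Calr was lower without overlap in both genotypes and missed the threshold in V338Y mice (edgeR adjusted p = 0.0547). The separation of the 2 sets thus rests partly on the threshold. In the interaction of age and genotype, fitted to all 15 mice, edgeR called 0 of 10 transcripts and 0.0% of 14128 genes, and DESeq2 called 0 of 10. At an unadjusted p under 0.05 both tools gave 2 of 10, higher in V338Y mice, where edgeR gave 5.06% of all genes as higher. The number was 8 with scaling to library totals, which moved the median of all genes to 0.19. With 1 mouse left out it was 0 to 4, at 0 without 19 mo V338Y mouse 2, 3 mo V338Y mouse 4 or 3 mo wild-type mouse 4 and at 4 without 3 mo V338Y mouse 1. Pdia4 had a difference of 0.49 on the log2 scale (SE 0.20, 95% interval 0.060 to 0.92, edgeR adjusted p = 0.484) and Pdia6 one of 0.41 (SE 0.18, 95% interval 0.025 to 0.79, edgeR adjusted p = 0.498). For Pdia3 the interval was -0.071 to 0.87, for Xbp1 -0.048 to 0.60, for Hspa5 -0.087 to 0.46 and for Calr -0.16 to 0.39. Fitted differences were above 0 for 9 of 10 transcripts, all but Dnajb9, with a median of 0.19 beside -0.014 for all genes. The comparisons share mice, since a low value in the 3 mo V338Y group enters the genotype, age and interaction fits alike.

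Some markers of other cell types were called with age, as were many genes, 18.3% of all genes tested being higher and 17.8% lower in wild-type mice, and 24.4% higher and 22.5% lower in V338Y mice. Of 8 macrophage markers 4 were higher at 19 mo in each genotype, and their summed level was 207 to 381 CPM in the mice of 3 mo, 308 to 359 CPM in 19 mo wild-type and 367 to 445 CPM in 19 mo V338Y mice. Plasma cells are rich in ER chaperones, and 3 of the 5 tested of 8 listed markers were higher in wild-type and 4 of 6 in V338Y mice. Only 2 of the 8 passed the count filter in the comparison of genotypes at 3 mo. The rest of those tested with age entered only through the mice of 19 mo, so these shares partly follow from the filter. The summed level of the 8 markers ranged over 38.7 to 60.9 CPM in wild-type and 60.9 to 244 CPM in V338Y animals at the younger age, and over 47.9 to 282 CPM and 73.4 to 210.0 CPM at the older age, and Iglc2 was at 0 in 3 mo wild-type mice. Of 7 endothelial markers 3 and 4 were higher, with sums of 190 to 242 CPM at 3 mo and 280 to 446 CPM at 19 mo.

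Neutrophil markers were at 0 to 1.79 CPM in all mice of 3 mo and at 2.37 to 4.797 CPM in 19 mo wild-type mice. In 19 mo V338Y mice they were at 2.91 to 621 CPM, with a median of 15.6 CPM. With age, 6 of 7 tested were higher in V338Y mice (0 of 2 in wild-type mice). Between the genotypes at 19 mo 0 of 7 tested were called, and 0 of 7 in the interaction. No marker of the other cell types was called in either. Ltf, Ngp, Elane and Mpo were at 0 in every mouse of 3 mo. Those of them that were tested in V338Y mice passed the count filter only through the mice of 19 mo. The share of 6 of 7 therefore partly follows from the filter and is not comparable with 0 of 2. The highest neutrophil sum was that of V338Y mouse 5, which also held the highest Hspa5, Hsp90b1, Canx and Dnajb9 of its group. Mouse 2 of that group held the highest Calr, Pdia3, Pdia4 and Pdia6, and mouse 3 the highest Sdf2l1 and Xbp1. Adipocyte markers were lower for 2 of 8 in wild-type mice and higher for 3 of 8 in V338Y mice, and fibroblast markers were mixed, 2 higher and 3 lower of 8 in wild-type, 1 and 3 in V338Y mice. Adipocyte sums were 394 to 1534 CPM in the younger wild-type, 301 to 794 CPM in the younger V338Y, 222 to 482 CPM in the older wild-type and 265 to 1367 CPM in the older V338Y animals, and fibroblast sums were 1220 to 1908, 1816 to 1939, 1045 to 1401 and 823 to 1803 CPM in the same order. Of 8 muscle fiber markers 1 was higher and 2 were lower in wild-type and 1 and 4 in V338Y mice. They were present throughout, at 270798 to 328412 CPM in the mice of 3 mo, 247316 to 306101 CPM in 19 mo wild-type and 179412 to 284986 CPM in 19 mo V338Y mice. The part of these cell types in the age differences of the chaperones was not tested.

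Within a group, mice high for any of Hsp90b1, Calr, Pdia3, Pdia4, Pdia6 and Sdf2l1 tended to be high for the others of these. Dnajb9 ran the opposite way to Calr, Pdia3, Pdia4, Pdia6 and Sdf2l1. Its r with Hsp90b1 was -0.475 and did not pass (Benjamini-Hochberg adjusted exact permutation p = 0.174). In 3 mo wild-type mice, mouse 4 was the highest for 8 of 10 transcripts, but it was the lowest for Dnajb9. In 3 mo V338Y mice, mouse 1 was the highest for 7 of 10 and again the lowest for Dnajb9. After the group means were subtracted, Pdia6 and Dnajb9 had r = -0.895 (rho = -0.886) over 15 mice, with exact permutation p = 6.03e-05 for r and 4.82e-05 for rho by exchange of mice within groups, and r = -0.874 without the 2 mice farthest from the median of Pdia6. Pdia3 and Sdf2l1 had r = 0.870 (rho = 0.886, exact permutation p = 4.94e-04 for r and 4.58e-04 for rho), and r = 0.846 without 2 mice. Of 45 pairs, 17 were positive and 5 negative at a Benjamini-Hochberg adjusted exact permutation p under 0.05 over the pairs, and all 5 negative pairs contained Dnajb9. The median r of the 45 pairs was 0.26, and the share passing among pairs of all genes was not worked out. Hspa5, for BiP, passed with Canx at r = 0.802 (rho = 0.711, exact permutation p = 0.00740 for r and 0.00711 for rho, r = 0.642 without 2 mice), and Hsp90b1, for Grp94, passed with both of them and with Calr, Pdia3, Pdia6 and Sdf2l1. For Xbp1 r lay between -0.218 and 0.264 to the other 9, and none of its pairs passed. Values of 1 mouse come from 1 library, so differences in RNA or library between mice enter every pair.

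**Figure D4:**
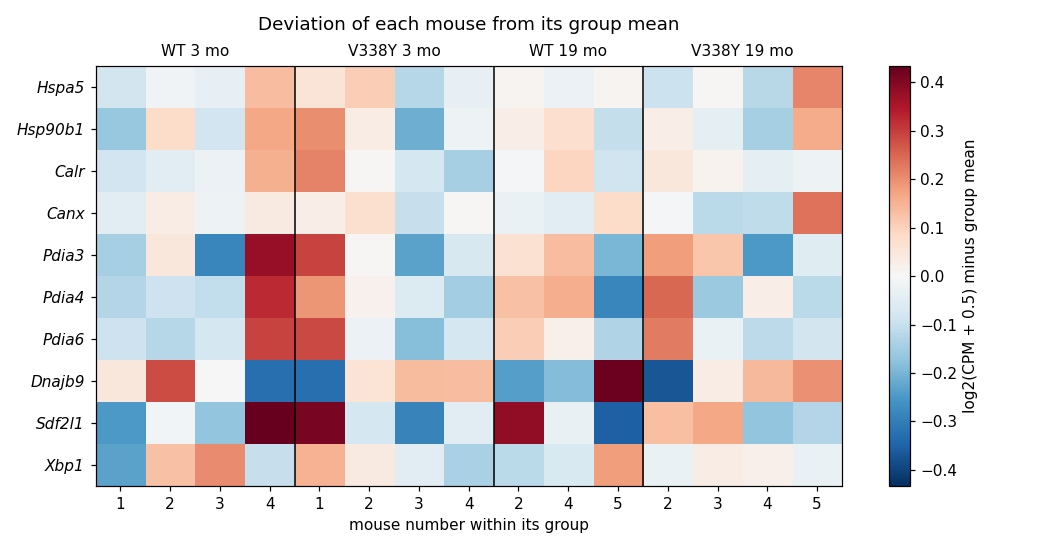
Deviation of each mouse from the mean of its group in log2(CPM + 0.5), for the 10 transcripts (rows) and 15 mice (columns, by mouse number). Wild-type mouse 4 and V338Y mouse 1 at 3 mo are high for most transcripts and low for Dnajb9.

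Among 14118 other genes, those most like the mean of the 10 transcripts in these within-group deviations were Naip2 (r = 0.920, rho = 0.875 over 15 mice), the pseudogene Gm11398 (r = 0.918), Hspa8 (r = 0.907), Hsp90aa1 (r = 0.905) and Tyrobp (r = 0.888), while the median r of all genes was 0.0091. Hspa8 encodes the constitutive Hsp70 of the cytosol, at 561 to 1495 CPM, and Hsp90aa1 the inducible cytosolic Hsp90, at 30.8 to 106 CPM. Naip2, Gm11398 and Tyrobp were low, at no more than 10.7 CPM in any mouse. The 5 are the highest of a long list and are given as a description.

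The wider machinery of the ER was read from 93 other genes in 7 lists, of which 88 could be tested. Neither genotype comparison called any of the 88, at 3 mo (edgeR 0, DESeq2 0, with 5 and 4 at an unadjusted p under 0.05) or at 19 mo (edgeR 0, DESeq2 0, with 11 and 10). Of all genes tested at 3 mo, 1293 (edgeR) and 1001 (DESeq2) of 13333 had an unadjusted p under 0.05. At 19 mo the numbers were 1235 and 1144 of 13833. With age, 33 of 88 (37.5%) passed in wild-type mice, 11 higher and 22 lower, beside 36.2% of all genes. In V338Y mice 35 of 88 (39.8%) passed, 11 higher and 24 lower, beside 46.9% of all genes. Both shares lay near those of all genes.

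Among the 13 UPR sensors and transcription factors, 3 were higher and 2 lower with age in wild-type mice, and 2 were higher and 1 lower in V338Y mice. Creb3l2, an ER-anchored transcription factor, rose from 11.7 ± 1.64 CPM (SD, n = 4) to 33.0 ± 4.09 CPM (n = 3) with age in wild-type and from 11.2 ± 1.53 to 32.03 ± 5.96 CPM in V338Y mice, with edgeR adjusted p-values of 1.23e-04 and 1.27e-04. Ern1, the gene of Ire1, rose by 0.83 and 0.90 on the log2 scale (edgeR adjusted p = 0.0145 and 0.00345). Atf4, the factor made when Perk slows translation, fell from 166 ± 17.7 to 106 ± 6.37 CPM in wild-type and from 161 ± 5.32 to 84.7 ± 5.05 CPM in V338Y mice (edgeR adjusted p = 0.00204 and 7.63e-05). Sensor and effector transcripts thus did not share 1 direction.

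ER-associated degradation, which returns misfolded proteins to the cytosol, had 3 of 16 genes higher and 3 lower with age in wild-type and 3 higher and 5 lower in V338Y mice. Syvn1, its central ubiquitin ligase, rose from 5.85 ± 0.320 to 14.1 ± 1.99 CPM in wild-type and from 4.90 ± 1.10 to 15.8 ± 1.68 CPM in V338Y mice (edgeR adjusted p = 2.62e-04 and 1.19e-04). Edem1, a lectin that hands over misfolded glycoproteins, rose by 1.08 on the log2 scale in V338Y mice, from 12.1 ± 1.41 to 25.5 ± 4.09 CPM (edgeR adjusted p = 3.48e-04). The motif of the chaperone promoters was also found for Syvn1 and Derl3 among 15 degradation genes with a window. Dnajc3 and Creld2 held it among 9 cochaperones and exchange factors with a window, and no gene of the other lists did. Of all genes 0.137% held it, and these lists too were chosen as ER genes. Syvn1 was higher with age in both genotypes, whereas Hspa5, Calr and Pdia6, which also hold the motif, were lower in wild-type mice. A part of the motif in these differences was not tested.

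The translocon and signal peptidase, through which proteins enter the ER, had 1 of 15 genes higher and 6 lower with age in wild-type and 2 higher and 8 lower in V338Y mice, where 17.8% and 22.5% of all genes were lower. The list itself was not tested. Their median log2 fold change was -0.26 and -0.38, beside 0.019 and 0.072 for all genes. Spcs1, a subunit of the signal peptidase, fell from 54.1 ± 3.49 to 35.5 ± 4.21 CPM in wild-type and from 56.3 ± 2.05 to 29.3 ± 2.32 CPM in V338Y mice (edgeR adjusted p = 0.00290 and 9.59e-05), and Spcs3 fell by 0.57 and 0.72 on the log2 scale. Sec61a1, the channel subunit, went the other way in V338Y mice, from 22.3 ± 0.958 to 30.2 ± 1.39 CPM (edgeR adjusted p = 0.00195).

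Of the 12 cochaperones and exchange factors of BiP, 1 was higher and 3 lower in wild-type and 2 and 3 in V338Y mice. Cdnf fell by 0.68 and 0.86 on the log2 scale, Sdf2, the close relative of Sdf2l1, fell by 0.65 and 0.75, and Sec63 rose by 0.40 and 0.46. Of 15 other disulfide isomerases and oxidases, 1 was higher and 4 lower in wild-type and 1 and 3 in V338Y mice, with Erp44, which retains proteins in the early secretory pathway, at -0.66 and -0.67. Of 9 genes of the glycoprotein folding cycle, 2 were higher and 2 lower in wild-type and 1 and 2 in V338Y mice. Uggt1, the sensor that sends unfolded glycoproteins back to calnexin and calreticulin, rose from 96.3 ± 11.9 to 153 ± 13.7 CPM in wild-type mice (edgeR adjusted p = 0.00251). Of 8 ER prolyl isomerases and the collagen chaperone, none was higher and 2 were lower in each genotype, with Ppic at -0.74 and -0.71.

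**Figure D5:**
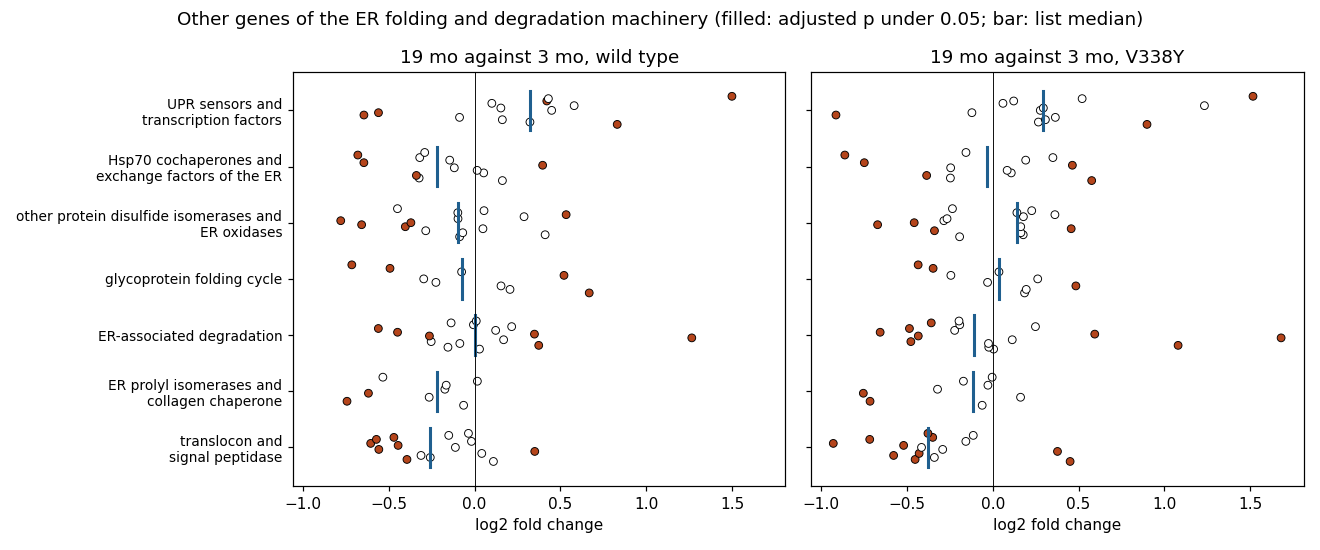
Log2 fold change from 3 mo to 19 mo of the 88 tested genes of the ER folding and degradation machinery, 1 point per gene and 1 row per list, in wild-type (left) and V338Y mice (right), filled where the edgeR adjusted p was under 0.05, with the median of each list as a bar. The translocon and signal peptidase lie mostly below 0 in both genotypes, while the UPR sensors and factors have medians above 0.

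In the interaction of age and genotype, edgeR and DESeq2 called 0 of these 88 genes, with 12 and 11 at an unadjusted p under 0.05. Of all 14128 genes tested, 1361 and 1264 reached that threshold. The smallest p belonged to the isomerase-like chaperone Erp29, which went from 19.2 ± 0.648 CPM to 14.5 ± 1.86 CPM with age in wild-type and from 16.4 ± 0.860 CPM to 18.3 ± 0.944 CPM in V338Y animals, a difference of 0.56 on the log2 scale (SE 0.13, edgeR adjusted p = 0.364). Edem1 had a difference of 0.69 (SE 0.19, adjusted p = 0.384), which passed with mouse number as a replicate block (0.78, edgeR adjusted p = 0.0332). That block also pairs the mice of 3 mo by number, although numbers at 3 mo were read as names only, so no call is drawn from it. Manf, a factor that stabilises BiP bound to its clients, had 0.66 (SE 0.20, adjusted p = 0.397), with 9.75 ± 0.927 CPM in 19 mo wild-type and 14.6 ± 2.88 CPM in 19 mo V338Y mice.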

How the data were processed

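RNA of quadriceps muscle from 15 mice (4, 4, 3 and 4 per group) was compared. The authors ran RSEM and deposited its expected count for each gene, as whole numbers, scaled neither for depth nor for length. How the estimates were rounded is not given in the sources used here. The submitters' processing notes name STAR 2.4.2a and GRCm38, whereas the methods name another mouse assembly. Gene identifiers were therefore matched to symbols, exon lengths and positions of a GRCm38 annotation by identifier alone (37693 of 39179), and promoter windows were taken from RefSeq. RSEM divides reads that fit several genes, so genes with close copies depend on them.

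The tests used edgeR 4.0.16 and limma 3.58.1 under R 4.3.3. A gene was kept if 10 counts or more were reached by 50% or more of the animals in 1 compared group, library sizes were TMM-normalized, and groups were compared with the quasi-likelihood test, adjusted by the Benjamini-Hochberg method over all genes tested. Only the compared groups entered a fit, except that all 15 mice entered the interaction. Code was tested on simulated data. DESeq2 1.42.0, RLE size factors, library totals, other filters, a fit of all mice, a replicate block and each mouse left out were alternatives.

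Groups come from the labels, which give no batch. Nothing says whether mice shared a litter or day. Of 105 pairs of files 0 were identical, and a chi-square test of 2 mice of 1 group gave 5.47 to 101 per degree of freedom, above counting noise. Mouse numbers recur in part between groups. Deviations from the group mean of same-numbered mice correlated across genes at 0.132 to 0.400 in the 3 pairs at 19 mo. Each exceeded 0.1, but pairs with different numbers ranged from -0.407 to 0.467, so the numbers are not shown to pair the mice. In the other comparisons the correlations of same-numbered mice were -0.162 to 0.141, and numbers were read as names only. The main tests treat the mice as unpaired, and the replicate block is an alternative only. Intervals are at 95%.

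The 10 members and all gene lists were chosen with earlier results of these data known. The text names all 10 members and, from each list, up to 3 called genes with the smallest p per comparison or, where none was called, up to 2. Results of 1 gene that the rule would name are not reported here. Genes most like the members were the 5 with the highest r, on log2 CPM with a pseudocount of 0.5.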

Additional observations from a re-analysis of the deposited data

Results flagged for a closer look

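Over the 10 transcripts, 30 groups of 4 mice were screened for a mouse that stood apart from its group by Dixon's ratio, and 2 were flagged, where chance flags about 1 in 20. Both were in 3 mo wild-type mouse 4. Pdia4 was at 24.48 CPM in that mouse and at 17.8 to 18.2 CPM in the other 3 mice of the group, and Pdia6 was at 51.69 CPM beside 38.6 to 39.9 CPM. The same mouse was the highest of its group for 8 of the 10 transcripts. Without it, Pdia6 was lower at 19 mo than at 3 mo in wild-type mice by a log2 fold change of -0.31 (edgeR adjusted p = 0.0451). No group difference of the age effects passed its test among the 10 transcripts, and all files were used.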

How the results depend on the processing

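Scaled to library totals, the median log2 fold change of the 10 transcripts was 0.24 for V338Y against wild-type mice at 19 mo, 0.078 for age in wild-type mice, 0.45 for age in V338Y mice and 0.40 for the interaction, while the median of all genes moved to 0.15, 0.11, 0.36 and 0.19. The number of transcripts called with age was then 0 in wild-type and 6 in V338Y mice. In these mice Hspa5 (0.21) and Calr (0.044) changed sign, as did Canx (0.062) and Pdia4 (0.027) in wild-type mice and Dnajb9 (0.13) in the interaction. With mouse number as a replicate block, 0 transcripts were called with age in wild-type mice, where numbers are names only, and Hsp90b1 (-0.061), Pdia3 (-0.0066), Dnajb9 (-0.12) and Xbp1 (-0.052) changed sign, as did Dnajb9 with age in V338Y mice (-0.16). The block changed no other count of calls among the 10.

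The remaining changes of sign were in values close to 0. For age in wild-type mice Hsp90b1 was -0.0075 with RLE size factors, -0.0073 with DESeq2 and -0.022 without a filter. For age in V338Y mice Pdia6 was -0.015, -0.017 and -0.018 under the same settings and -0.011 in a fit of all mice, and at 19 mo Canx was -0.0058 without a filter and -0.0042 in a fit of all mice.

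With 1 mouse left out, 1 to 3 transcripts were called with age in wild-type mice, and 1 without 19 mo mouse 4. The median of the interaction was 0.14 to 0.31, the highest without 3 mo V338Y mouse 1. Signs changed within -0.082 to 0.049 for Calr and -0.22 to 0.036 for Pdia3 at 3 mo. At 19 mo the ranges were -0.028 to 0.078 for Hspa5, -0.018 to 0.076 for Hsp90b1, -0.057 to 0.075 for Canx and -0.33 to 0.037 for Dnajb9. For age in wild-type mice they were -0.049 to 0.059 for Hsp90b1, -0.0011 to 0.23 for Pdia3, -0.15 to 0.059 for Pdia4, -0.17 to 0.20 for Dnajb9, -0.12 to 0.35 for Sdf2l1 and -0.063 to 0.11 for Xbp1. For age in V338Y mice they were -0.078 to 0.10 for Pdia6 and -0.086 to 0.13 for Dnajb9, and for the interaction -0.19 to 0.18 for Dnajb9 and -0.030 to 0.42 for Sdf2l1. None of these transcripts was called in that comparison. Except for library totals, the cause of a change was not tested.

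Over all genes, calls at 3 mo rose from 10 to 66 with DESeq2 and 33 without a filter, at 19 mo from 6 to 62 and 14, and in the interaction from 0 to 26 and 5, and to 117 with the block, which lowered those with age in wild-type mice from 4940 to 2229 and those of the 88 other ER genes from 33 to 12. Of the named genes of these lists, 0 changed sign under any setting and 18 values lost their call under other settings and 15 with a mouse left out. Count depth limits Sdf2l1 most, at 19 to 64 counts per mouse.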
